A study of Homo sapiens with 6 samples.

Results

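The NLRP and subcortical maternal complex genes examined here were 10 of the 48183 gene names in the table: NLRP2, NLRP4, NLRP5, NLRP7, NLRP9, NLRP11, NLRP13, KHDC3L, OOEP and TLE6. They were chosen by name, and the counts of all identifiers that share a name were summed. Their levels came from bulk RNA-seq of polyadenylated RNA in 6 libraries of human embryonic stem cells that carry the EOS-GFP reporter. The labels call the line H1, whereas the study's methods describe H9. The 4 naive libraries were cells converted with the AMPK activator AICAR (AICAR 1 and AICAR 2), with VPA, an inhibitor of histone deacetylases, or with doxycycline, which turns on CA-p38, a constitutively active p38 kinase, in a Tet-ON derivative of the EOS line. The study dates induction as 14 days for AICAR, 9 days for VPA and 7 days for CA-p38. It was followed by 14 or 15 passages for AICAR (which library had which is not given) and by 12 passages for each of the others. These days are not the length of treatment. In the study's protocol AICAR stayed on at a lower concentration for a further week, and doxycycline was given for fewer days. After conversion naive cells were grown in PXGL medium and sorted for CD75 and SUSD2. The labels describe mouse embryonic fibroblast feeders for naive cells. The study also describes later culture of naive cells without feeders, for AICAR cells as well as CA-p38 cells. Which of these each library had is not given. The 2 primed libraries were the untreated parental EOS and CA-p38 EOS lines, grown without feeders in StemFit AK02N and not sorted. State, medium and sorting, and feeders where they were used, therefore cannot be told apart. Nothing states that the libraries of a state came from separate cultures of 1 kind, so the p-values below measure the spread among these libraries, which in the naive state includes the induction method.

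Oocytes store a large protein assembly beneath their plasma membrane, the subcortical maternal complex, which the early embryo inherits and needs for its first divisions. Its core is built from NLRP5 (MATER), TLE6 and OOEP (FLOPED), to which KHDC3L (the human relative of mouse Filia) binds, and the NLRP genes of the reproductive group supply further proteins of the oocyte. Mothers who lack NLRP7 or KHDC3L can have recurrent hydatidiform moles, in which maternal imprints are missing. The transcripts are therefore best known as maternal ones, and human naive pluripotent cells resemble the preimplantation epiblast.

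The libraries held 46823699 to 54277064 counts, of which 3 counts, taken here as the floor of detection, correspond to 0.0553 to 0.0641 CPM, the count scaled to the size of the library. Intervals and floors below cover counting error only. Naive markers fixed as a list (8 of 8, among them ALPG, DNMT3L and DPPA5) were higher in the naive libraries. Their summed level was 5070 to 5990 CPM against 8.5 to 12.3 CPM. Primed markers (6 of 6) were lower, so the states carried the markers of their labels. The naive list includes SUSD2, on which the naive cells were sorted, so its rise gives no separate support. The primed EOS library had counts for 35751 gene names, compared with 32419 to 33248 in the other libraries.

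Of the 10 genes, 7 were higher in the naive libraries and none was lower. NLRP7, KHDC3L and OOEP rose the most, NLRP9, NLRP4 and NLRP2 rose to a smaller extent, and TLE6 rose least. NLRP5, NLRP11 and NLRP13 had too few counts to be tested. The test was edgeR's quasi-likelihood fit with Benjamini-Hochberg adjustment over 26497 genes at a threshold of 0.05. In the same fit 26% of all genes tested were called higher and 27% lower, and their median log2 fold change was 0.11. Every count of genes called in the lists below is to be read beside these shares. In 7 of the 10 genes all naive libraries lay above both primed libraries, as they did for 32.9% of all genes tested. A rise of at least 10-fold, a limit chosen after the values were seen, was called for 6 of the 10 and for 4.79% of all genes tested. The genes that could be tested passed the count filter mainly through their naive libraries, so these counts describe the 10 genes and support nothing further. In bulk RNA, fewer cells of a type and less RNA per cell cannot be told apart.

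**Figure D1:**
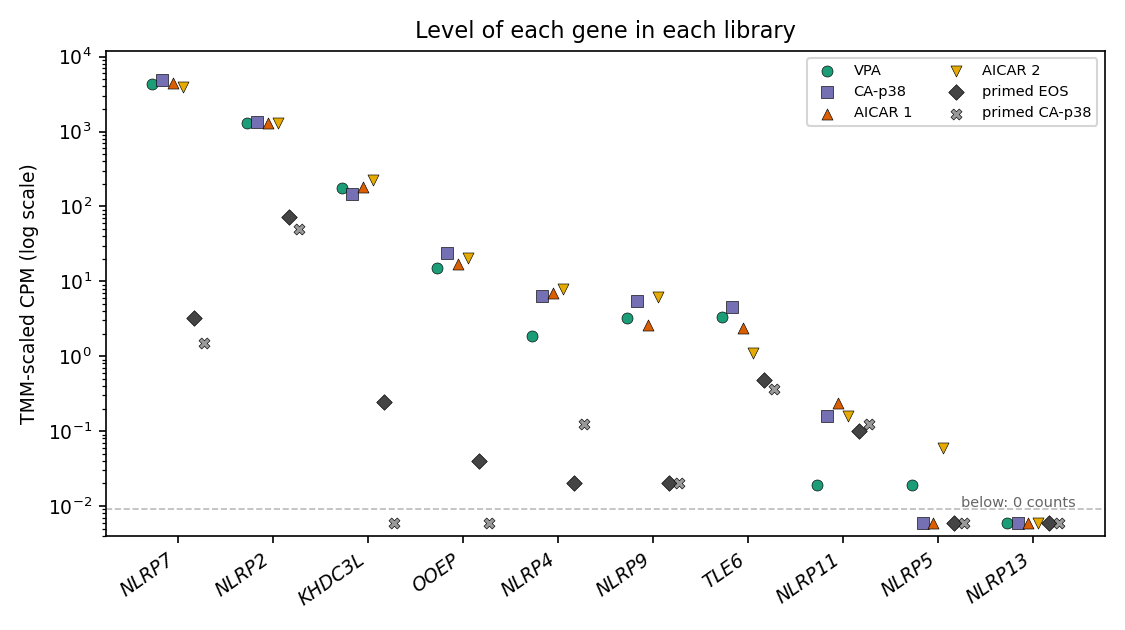
Level of the 10 genes in each of the 6 libraries, as TMM-scaled CPM on a log axis, with each library as 1 point and libraries at 0 counts drawn under the dashed line. The naive libraries (VPA, CA-p38, AICAR 1, AICAR 2) lie above both primed libraries in 7 genes, and for NLRP11 the states overlap.

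The 7 NLRP genes lie on the long arm of chromosome 19, in 2 blocks, and KHDC3L and OOEP are 4.38 kb apart on chromosome 6. Promoter windows from RefSeq (GRCh38.p14), which run from 250 bases before a gene's start to 50 bases after it, were found for 9 of the 10 genes; NLRP13 was not among them. The windows of the 4 genes with the highest naive levels are given because they head the list of levels described next. Each is printed on the gene's own strand, with every CCAAT or its reverse complement in capitals. They are at chr19:54947481-54947780 on the minus strand for NLRP7, chr19:54966124-54966423 on the plus strand for NLRP2, chr6:73362408-73362707 on the plus strand for KHDC3L and chr6:73369848-73370147 on the minus strand for OOEP. The windows of NLRP7, NLRP2 and OOEP lie inside the full annotated spans given below, not at their outer ends.
NLRP7: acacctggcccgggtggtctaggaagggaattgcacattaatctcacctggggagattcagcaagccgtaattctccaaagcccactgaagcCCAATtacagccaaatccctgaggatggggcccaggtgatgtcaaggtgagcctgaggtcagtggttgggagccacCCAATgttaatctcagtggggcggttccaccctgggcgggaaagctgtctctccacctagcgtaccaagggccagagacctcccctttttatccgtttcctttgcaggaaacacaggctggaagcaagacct
NLRP2: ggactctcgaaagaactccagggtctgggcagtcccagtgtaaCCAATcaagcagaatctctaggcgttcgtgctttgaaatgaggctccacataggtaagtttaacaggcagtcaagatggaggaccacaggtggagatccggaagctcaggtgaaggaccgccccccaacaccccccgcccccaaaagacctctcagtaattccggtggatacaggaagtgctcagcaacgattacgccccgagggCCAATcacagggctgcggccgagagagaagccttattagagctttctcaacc
KHDC3L: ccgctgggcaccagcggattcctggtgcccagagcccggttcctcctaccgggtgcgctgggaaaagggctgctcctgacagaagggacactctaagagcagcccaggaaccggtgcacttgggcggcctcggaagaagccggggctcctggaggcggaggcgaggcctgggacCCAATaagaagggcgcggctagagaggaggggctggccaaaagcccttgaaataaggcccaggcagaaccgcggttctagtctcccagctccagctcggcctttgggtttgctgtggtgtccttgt
OOEP: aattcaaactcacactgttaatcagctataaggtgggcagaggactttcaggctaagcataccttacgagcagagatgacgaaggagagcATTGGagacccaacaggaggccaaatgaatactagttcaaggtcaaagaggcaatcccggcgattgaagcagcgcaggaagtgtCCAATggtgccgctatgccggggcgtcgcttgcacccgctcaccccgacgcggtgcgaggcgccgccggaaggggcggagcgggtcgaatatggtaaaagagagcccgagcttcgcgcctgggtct

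CCAAT, a box of 5 letters, was found on either strand in windows of 8 of the 9 genes, NLRP9 being the exception, and in 34.6% of the 35116 promoter windows of that length. TATAAA was found in 11.5% of all windows and in 1 of the 2 NLRP11 windows, but in no window of the other genes. ATGCAAAT, the octamer, was in 1.77% of all windows and in none of these. CANNTG, the E-box, was in windows of 9 of the 9 genes and in 68.7% of all windows, and GGGCGG in 6 of the 9 and in 45.0%. Both strands were searched, and motifs may overlap, since CCAATTG would hold both CCAAT and CANNTG. The windows differed in base composition, from 3 CpG dinucleotides and 39.0% G and C in NLRP9 to 31 CpG and 71.3% in TLE6, against a median of 14 CpG and 58.7% over all windows. NLRP2 has a second window 1090 bases upstream that differs from the printed one at 3 of 300 bases. The motifs were chosen after the sequences were seen, and a match describes letters only.

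NLRP7, a member of the NLRP family that primates have and mice lack, had the highest level of the 10 genes. Its CPM was 4265 in VPA, 4912 in CA-p38, 4449 in AICAR 1 and 3878 in AICAR 2, against 3.25 (EOS) and 1.49 (CA-p38) in the primed lines. The naive libraries were close to each other and far above both primed libraries. The mean was 4376 ± 429.5 CPM in the naive libraries (SD, n = 4) against 2.37 ± 1.24 CPM in the primed ones (SD, n = 2), with a log2 fold change of 10.85 (SE 0.30, adjusted p = 3.5e-11 by edgeR). In each naive library NLRP7 ranked 5 among 48183 gene names by CPM, and by mean CPM per kilobase of exon it ranked 20 among 42620 names with a length. It alone made up 71.5% to 76.2% of the counts of the 10 genes in the naive libraries, but 2.84% to 4.29% in the primed ones.

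The primed level of NLRP7 rested on 161 (EOS) and 73 (CA-p38) counts, so the summed ratio of 1840 had a counting interval of 1620 to 2100. Primed EOS also had more counts than primed CA-p38 for each of the 8 naive markers. The gap was wide for some, such as ALPG (70 against 25) and DNMT3L (48 against 16). It was narrow for KLF4 (50 against 42) and TFCP2L1 (244 against 231). NLRP4 went the other way, with 1 against 6 counts. As a share of the mean naive level, NLRP7 stood at 0.0743% and 0.0341% in primed EOS and primed CA-p38, and ALPG at 0.0613% and 0.0221%. The part of naive cells in the primed cultures in this difference was not tested.

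NLRP2, the neighbour of NLRP7, was the one gene of the set with a sizeable primed level. Its CPM was 1294 in VPA, 1343 in CA-p38, 1320 in AICAR 1 and 1284 in AICAR 2, against 71.6 (EOS) and 50.4 (CA-p38) in the primed lines. The 4 naive libraries were almost equal, and none came near the primed ones. The mean was 1310 ± 26.4 CPM (SD, n = 4) against 61.0 ± 15 CPM (SD, n = 2), and the log2 fold change was 4.42 (SE 0.15, adjusted p = 1.81e-10 by edgeR). The primed level was 5.46% and 3.85% of the naive mean. Among the 8 naive markers this share ran from 0.0613% (ALPG) to 4.13% (TFCP2L1) in primed EOS and from 0 (KLF17) to 3.96% (TFCP2L1) in primed CA-p38.

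NLRP7 and NLRP2 each appear in the table under 10 identifiers, because alternative assemblies of this region carry further copies. Reads that match several copies could be split between them or dropped by the mapping quality limit, so the levels are uncertain where the direction is not. Fitted apart, all 10 identifiers of NLRP7 were called higher, with log2 fold changes of 10.5 to 11.54, and no identifier held more than 18.8% of the counts. All 10 identifiers of NLRP2 were called higher as well, with log2 fold changes of 4.27 to 4.53 and shares of 7.32% to 17.4%. On the chromosome itself NLRP7 lies at chr19:54923509-54966312 on the minus strand and NLRP2 at chr19:54953130-55001142 on the plus strand (GRCh38). Their spans overlap by 13183 bases, with no exonic base in common. The pseudogene RPL36AP50 lies inside NLRP2 on the same strand and shares 67 exonic bases with it.

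KHDC3L, a KH-domain protein that joins the complex, went from almost nothing to a high level. It had 9162, 7503, 9955 and 11106 counts in VPA, CA-p38, AICAR 1 and AICAR 2, or 174.9, 148.4, 183.1 and 223.5 CPM, compared with 12 counts (EOS) and 0 (CA-p38) in the primed lines. AICAR 2 was the highest and CA-p38 the lowest of the naive libraries, and the states did not overlap. The naive mean was 182.5 ± 31.1 CPM (SD, n = 4), and the log2 fold change was 10.52 (SE 0.43, adjusted p = 6.6e-10 by edgeR). The ratio of the summed levels was 1500, with a counting interval of 856 to 2890. Since one primed library was at 0, the fitted value depended on the primed library used: it was 9.55 with primed EOS alone and 16.19 with primed CA-p38 alone, where the prior count sets it. KHDC3L lies at chr6:73362658-73364171 on the plus strand.

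OOEP, the core KH-domain protein of the complex, had a naive level roughly an order of magnitude below KHDC3L. Its counts were 787 in VPA, 1217 in CA-p38, 934 in AICAR 1 and 1025 in AICAR 2, against 2 (EOS) and 0 (CA-p38) in the primed lines. Every naive library was above both primed ones. The naive mean was 19.2 ± 3.97 CPM (SD, n = 4), the ratio of the summed levels was 942 with a counting interval of 261 to 7780, and the fitted log2 fold change was 9.72 (SE 0.49, adjusted p = 4.31e-09 by edgeR). Its span, chr6:73368555-73395133 on the minus strand, shares 306 exonic bases with DDX43 and 194 with OOEP-AS1, both on the opposite strand. The pseudogenes RPL39P3 and RPS6P8 lie within it with no exonic base shared. Whether counting used strand is not stated, so reads in these stretches cannot be assigned. DDX43, an RNA helicase gene, was higher in naive cells too (77.1 ± 3.15 against 0.102 ± 0.000845 CPM, log2 fold change 9.53), and OOEP-AS1 had 38 to 98 counts in naive libraries and 0 in both primed ones, at least 24-fold higher against a floor of 3 counts per library.

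TLE6, a corepressor-like protein of the TLE family and the third core subunit, changed least among the genes called. Its CPM was 3.36 in VPA, 4.57 in CA-p38, 2.35 in AICAR 1 and 1.11 in AICAR 2, against 0.485 (EOS) and 0.368 (CA-p38) in the primed lines. The naive libraries differed among themselves by 4.13-fold, with AICAR 2 the lowest, yet all were above the primed ones. The mean was 2.85 ± 1.47 CPM (SD, n = 4) against 0.426 ± 0.0827 CPM (SD, n = 2), with a log2 fold change of 2.73 (SE 0.55, adjusted p = 0.000993 by edgeR). TLE6 lies apart from the NLRP blocks, at chr19:2977538-2995179 on the plus strand.

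NLRP5, the protein around which the core of the complex is organised, was at the floor. It had 1 count in VPA, 3 in AICAR 2 and 0 in the other 4 libraries, and no fold is given. NLRP5 lies at chr19:55999726-56061810 on the plus strand. The core trio was thus uneven in naive cells. OOEP had 787 to 1217 counts per naive library, TLE6 was low and NLRP5 was not distinguishable from absence at this depth. Of the 1572 exonic bases of OOEP, 306 are shared with DDX43. Reads there cannot be assigned, so the part of DDX43 in the OOEP level is not known. Per kilobase of exon the naive means were 12.2 CPM for OOEP, 0.801 for TLE6 and 0.00494 for NLRP5.

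PADI6 and ZBED3 are also reported parts of the complex. PADI6, a relative of the protein-citrullinating enzymes, had 13, 4, 6 and 7 counts in VPA, CA-p38, AICAR 1 and AICAR 2. It had 0 in both primed libraries and was not tested. Without a filter beyond 1 count it was called higher by edgeR, a call that rests on these few counts. ZBED3, a zinc finger protein, was lower in naive cells, with 4.88 ± 1.67 CPM (SD, n = 4) against 12.4 ± 0.184 CPM (SD, n = 2) and a log2 fold change of -1.34 (SE 0.26, adjusted p = 0.000797 by edgeR). The genes of the complex therefore did not all move in 1 direction.

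NLRP4 and NLRP9, oocyte genes of the second block on chromosome 19, were higher in naive cells at low levels. NLRP4 had 99 counts in VPA, 321 in CA-p38, 381 in AICAR 1 and 393 in AICAR 2, against 1 (EOS) and 6 (CA-p38) in the primed lines. VPA was the lowest naive library, 4.18-fold under AICAR 2 in CPM, and still above both primed libraries. The naive mean was 5.79 ± 2.68 CPM (SD, n = 4) against 0.0714 ± 0.0724 CPM (SD, n = 2), with a log2 fold change of 6.30 (SE 0.76, adjusted p = 1.49e-05 by edgeR). The summed ratio was 81.1, with a counting interval of 39.3 to 202.

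The summed level of 7 markers of the 8-cell stage was 7.49 CPM in VPA, 7.79 in CA-p38, 20.9 in AICAR 1 and 32.4 in AICAR 2, while NLRP4 stood at 1.89, 6.35, 7.01 and 7.91 CPM. In the primed libraries the markers summed to 0.0808 CPM in EOS and 0.0613 CPM in CA-p38. Single markers did not all keep the order of this sum: ZSCAN4 and KDM4E, for example, were higher in VPA than in CA-p38. Among the called genes of the set, NLRP4 alone kept that order. NLRP9, of the same block, stood at 3.23 CPM in VPA, 5.4 in CA-p38, 2.63 in AICAR 1 and 6.12 in AICAR 2. With 4 naive libraries no test of the order was made, and the part of 8-cell-like cells in the NLRP4 level was not tested. TLE6 was lowest in AICAR 2, where the sum of these markers was highest. Its highest level was in CA-p38 (4.57 CPM), not in VPA (3.36 CPM), where that sum was lowest. A link of TLE6 to these markers was not tested.

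NLRP9 had 169 counts in VPA, 273 in CA-p38, 143 in AICAR 1 and 304 in AICAR 2, and 1 count in each primed library. Its naive libraries spread over 2.63 to 6.12 CPM with no overlap with the primed ones. The mean was 4.34 ± 1.68 CPM (SD, n = 4), the summed ratio was 211 with a counting interval of 58.4 to 1750, and the fitted log2 fold change was 7.58 (SE 0.67, adjusted p = 8.55e-07 by edgeR). NLRP9 shares 607 exonic bases with EPN1, an endocytosis gene on the opposite strand, and none with RN7SKP109, which lies within it. EPN1 was present at 238 CPM in primed cells, where NLRP9 had 1 count per library, and at 182 CPM in naive cells, where it was lower by a log2 fold change of -0.39.

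NLRP11 and NLRP13, between NLRP9 and NLRP5, did not follow. NLRP11 had 1, 8, 13 and 8 counts in VPA, CA-p38, AICAR 1 and AICAR 2 and 5 and 6 in primed EOS and primed CA-p38, so the states overlapped. The ratio of the summed levels was 1.30, with a counting interval of 0.632 to 2.87. NLRP13 had 0 counts in all 6 libraries. NLRP9 (chr19:55708438-55738402, minus strand), NLRP11 (chr19:55785397-55836800, minus), NLRP4 (chr19:55836540-55881855, plus) and NLRP13 (chr19:55891699-55932336, minus) lie in this order on the chromosome, and the block from NLRP9 to NLRP5 spans 353 kb.

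NLRP4 and NLRP11 start back to back, which sets a called gene beside one near the floor. Their windows, at chr19:55836290-55836589 on the plus strand and chr19:55836526-55836825 on the minus strand, share 64 bases, printed in capitals below, and the genes share 261 exonic bases. Reads in those bases cannot be assigned without strand.
NLRP4: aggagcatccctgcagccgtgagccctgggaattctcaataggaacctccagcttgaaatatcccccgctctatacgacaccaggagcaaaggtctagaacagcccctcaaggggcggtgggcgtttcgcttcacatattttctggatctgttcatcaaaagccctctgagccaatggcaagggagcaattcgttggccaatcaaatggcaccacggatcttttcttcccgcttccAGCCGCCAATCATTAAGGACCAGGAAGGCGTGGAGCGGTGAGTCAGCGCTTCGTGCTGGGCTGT
NLRP11: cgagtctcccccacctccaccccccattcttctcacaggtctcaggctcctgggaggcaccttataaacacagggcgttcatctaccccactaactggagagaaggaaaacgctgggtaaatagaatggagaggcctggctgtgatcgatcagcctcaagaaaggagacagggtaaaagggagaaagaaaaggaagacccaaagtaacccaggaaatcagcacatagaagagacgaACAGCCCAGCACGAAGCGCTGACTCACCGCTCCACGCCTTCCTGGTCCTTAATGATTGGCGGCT

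**Figure D2:**
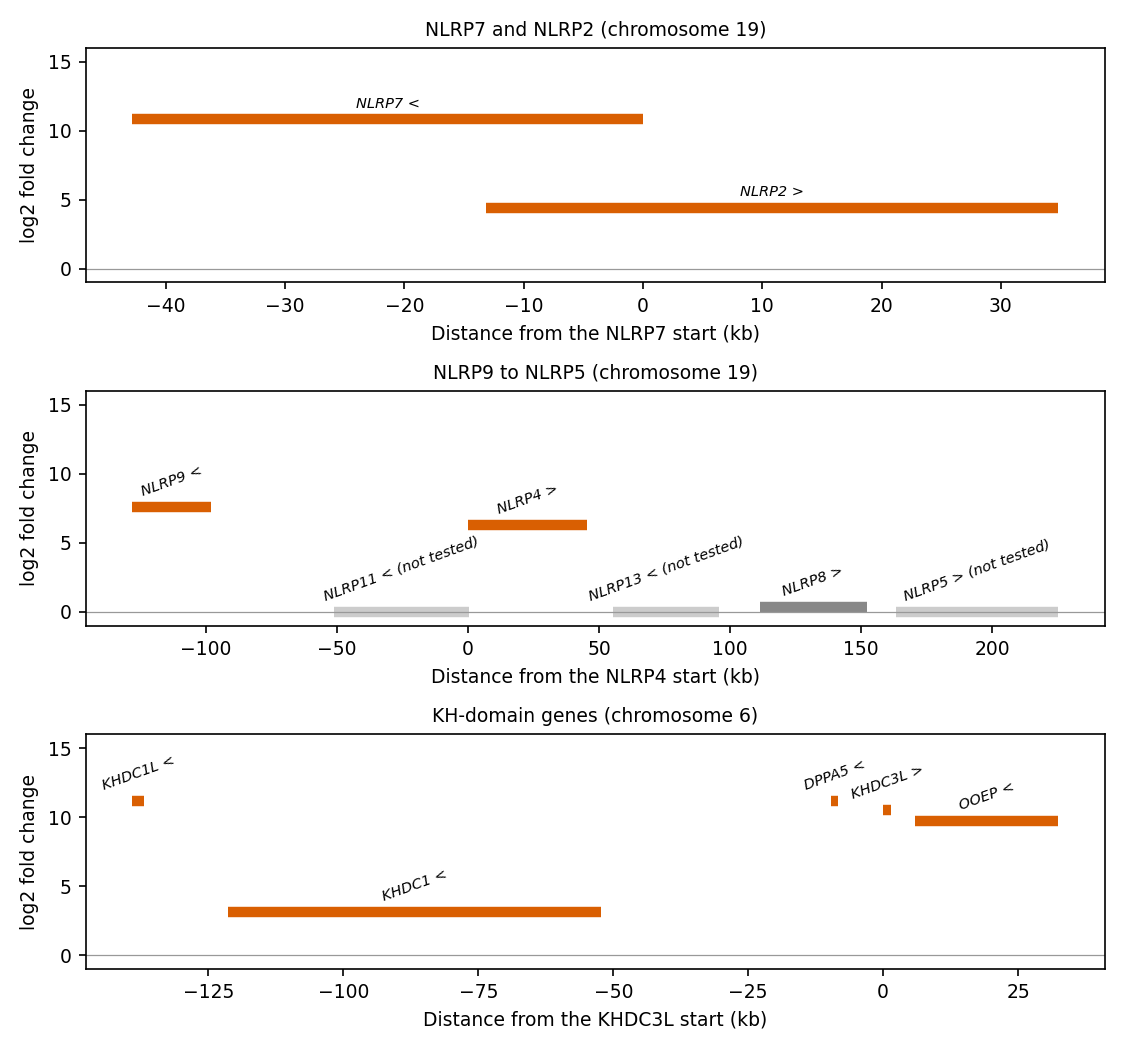
Fitted log2 fold change of naive over primed libraries (vertical axis) for genes drawn to scale by distance in kb from the start of NLRP7, NLRP4 or KHDC3L, with arrowheads for strand. Orange bars were called higher, dark grey was tested and not called, and light grey bars at 0 were not tested and have no fitted value; NLRP9 and NLRP4 are separated by the untested NLRP11.

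Genes within 100 kb of the 10 genes were counted as neighbours, leaving out the genes themselves. Of 68 such genes annotated, 39 were tested, 23 were higher and 6 lower, while 26% of all genes tested were higher and 27% lower. Around KHDC3L and OOEP, 9 of 13 tested neighbours were higher and none lower, with a median log2 fold change of 3.09. Those higher include DPPA5, itself a naive marker, and RPS6P8, which lies inside OOEP. They also include DDX43 and OOEP-AS1, which share exonic bases with OOEP. Around NLRP7 and NLRP2 it was 5 of 6 higher and none lower, with a median of 1.12. In the NLRP9 to NLRP5 block 5 of 13 were higher and 4 lower, with a median of -0.23. Around TLE6 4 of 7 were higher and 2 lower, with a median of 0.85, against 0.11 for all genes.

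The relatives of each gene were taken as fixed lists. The listed KH-domain genes of the KHDC3L locus all rose. DPPA5, a naive marker that lies 8.38 kb away, rose by a log2 fold change of 11.19 (621.3 ± 14.96 against 0.263 ± 0.170 CPM). KHDC1L, outside the 100 kb used for neighbours, rose by 11.15 (376.1 ± 53.5 against 0.162 ± 0.114 CPM). KHDC1, which lies 52293 bases away, rose by 3.09 (5.98 ± 0.956 against 0.701 ± 0.0777 CPM). Among 5 TLE genes of the Groucho family, TLE3 (1.05) and TLE2 (0.89, adjusted p = 0.0411) rose on the log2 scale by edgeR. TLE4 (-1.40), TLE5 (-1.59) and TLE1 (-1.71) fell. The call for TLE2 was among those that did not hold under every setting.

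Among 7 other NLRP genes, 6 were tested. NLRP12, a gene of myeloid cells, rose with a log2 fold change of 3.49 (SE 0.20, adjusted p = 1.19e-08 by edgeR), from 2.90 ± 0.105 CPM (SD, n = 2) to 32.5 ± 4.70 CPM (SD, n = 4). NLRP14, a germ cell gene, fell from 12 and 24 counts in primed EOS and primed CA-p38 to between 0 and 2 in the naive libraries (log2 fold change -4.08, adjusted p = 0.00329 by edgeR), a call lost without primed CA-p38. NLRP10 (1.23), NLRP8 (0.34), NLRP1 (-0.41) and NLRP3 (-0.41), the last 2 being inflammasome sensors, were not called, and NLRP6 was not tested. The rise was therefore not shared by the family as a whole in these libraries.

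**Figure D3:**
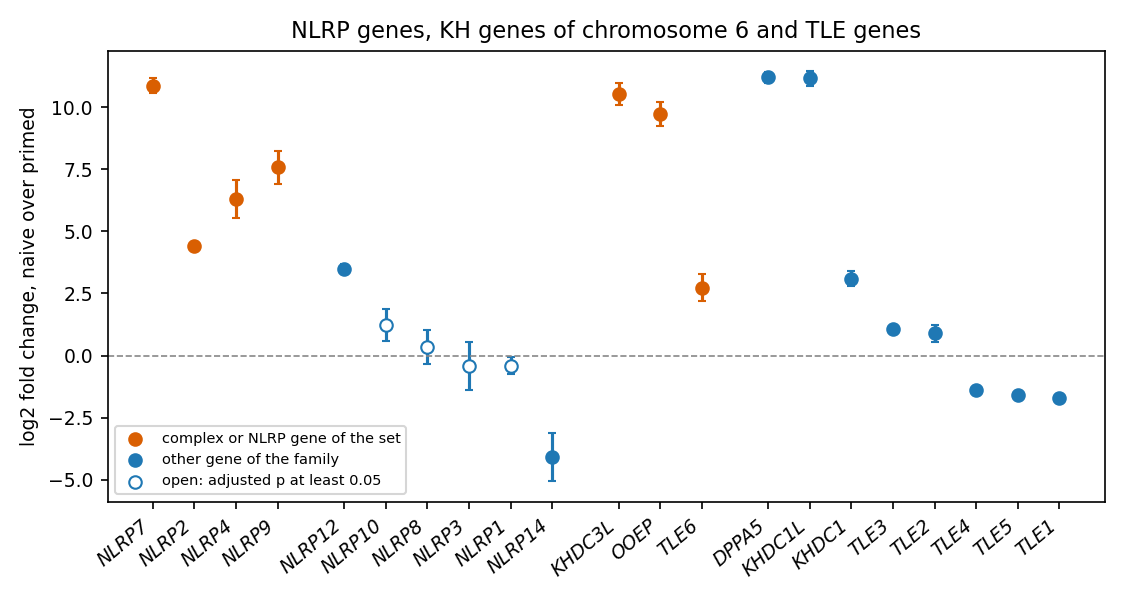
Fitted log2 fold change (naive over primed) with its standard error for the 7 tested genes of the set (orange) and the tested members of the other NLRP, KH-domain and TLE lists (blue), open where the adjusted p was at least 0.05. NLRP7, KHDC3L, OOEP, DPPA5 and KHDC1L lie above 9, while NLRP14 and 3 TLE genes are the filled points below 0.

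The inflammasome, the complex that other NLRP proteins assemble in immune cells, gave mixed values. Of 12 genes, 9 were tested, 4 were higher and 3 lower, against 26% and 27% of all genes tested. NLRC4 (log2 fold change 3.9), CASP4 (3.49), MEFV (1.58) and IL18 (1.56) rose. Their naive means were 2.91, 0.369, 2.83 and 0.876 CPM in that order. The calls for CASP4 and IL18 did not hold under every setting. AIM2 (-5.16) fell. The adaptor PYCARD (20.2 to 14 CPM, log2 fold change -0.52, adjusted p = 0.021) and CARD8 (18.4 to 6.60 CPM, -1.48, adjusted p = 1.31e-05) fell by edgeR. The call for PYCARD was lost with library totals (adjusted p = 0.0665) and without primed EOS (0.113) or primed CA-p38 (0.0683). The pore former GSDMD (0.29) and the kinase NEK7 (0.27) were not called.

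Oocyte genes outside the complex were mostly near the floor. Of 15, 4 were tested and 1, the maternal factor ZAR1, rose (1.63 ± 0.493 against 0.194 ± 0.131 CPM, log2 fold change 3.06, adjusted p = 0.00039 by edgeR). GDF9 (0.57), ZP3 (-0.48) and H1-8 (1.89) were not called. BMP15, ZP4, OOSP2 and MOS were at 0 in every library. The summed level of the list was 2.82 to 4.68 CPM in naive and 2.0 to 2.43 CPM in primed libraries. The 10 genes summed to 5420 to 6440 CPM in naive libraries, of which NLRP7 alone made up 71.5% to 76.2%. TLE6, NLRP9 and NLRP4 had naive means of only 2.85, 4.34 and 5.79 CPM, and NLRP5, NLRP11 and NLRP13 were too low to test.

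Of 5 genes that guard maternal imprints, the process in which NLRP7 and KHDC3L are implicated, 2 were higher and 1 lower. Among all genes tested these shares were 26% and 27%. DPPA3, which protects maternal methylation in the zygote and is also a naive marker, rose to 381.9 ± 45.3 CPM (SD, n = 4) from 0.568 ± 0.139 CPM (SD, n = 2), a log2 fold change of 9.39. ZFP57 rose to 78.3 ± 8.98 CPM (SD, n = 4) from 0.356 ± 0.0173 CPM (SD, n = 2), a log2 fold change of 7.77, and DNMT1, the maintenance methyltransferase, fell with a log2 fold change of -1.70. UHRF1 (-0.15) and 1 further gene were not called.

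Levels per kilobase of exon put the genes in order. In naive cells the mean was 1110 CPM per kb for NLRP7, 208 for NLRP2, 176 for KHDC3L, 12.2 for OOEP, 1.47 for NLRP4, 1.21 for NLRP9 and 0.801 for TLE6. Neighbours NLRP4, NLRP9 and TLE6 were not separated beyond the spread of their libraries. KHDC3L in AICAR 2 reached the range of NLRP2, whose level is uncertain for its 10 identifiers. The level of OOEP may hold reads of DDX43 from their shared exonic bases. In primed cells the order differed, with NLRP2 first at 9.66, then NLRP7 at 0.602, TLE6 at 0.120 and KHDC3L at 0.117.

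Each naive library was also set against the primed library of its own parental line, which shows the induction methods apart but has no replicate. NLRP7 was 1310-fold higher in VPA, 1370-fold in AICAR 1 and 1190-fold in AICAR 2 over primed EOS, and 3290-fold (counting interval 2620 to 4200) in CA-p38 over primed CA-p38. NLRP2 was 18.1-fold, 18.4-fold, 17.9-fold and 26.6-fold higher in the same order. The CA-p38 ratios were the highest for both genes, and the primed CA-p38 library was the lower of the primed ones for both.

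KHDC3L was 722-fold higher in VPA, 756-fold in AICAR 1 and 922-fold in AICAR 2, and at least 2420-fold higher in CA-p38 against a floor of 3 counts, since its parental library was at 0 (the lower 95% counting limit was 1970). OOEP was likewise at least 393-fold higher in CA-p38 (lower counting limit 319), while in VPA, with 2 parental counts, the ratio was 372 with a counting interval of 103 to 3080. TLE6 ran from 2.28-fold (1.39 to 3.86) in AICAR 2 to 12.4-fold (7.69 to 21.3) in CA-p38, intervals that do not overlap. For NLRP11 all 4 intervals included 1.

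**Figure D4:**
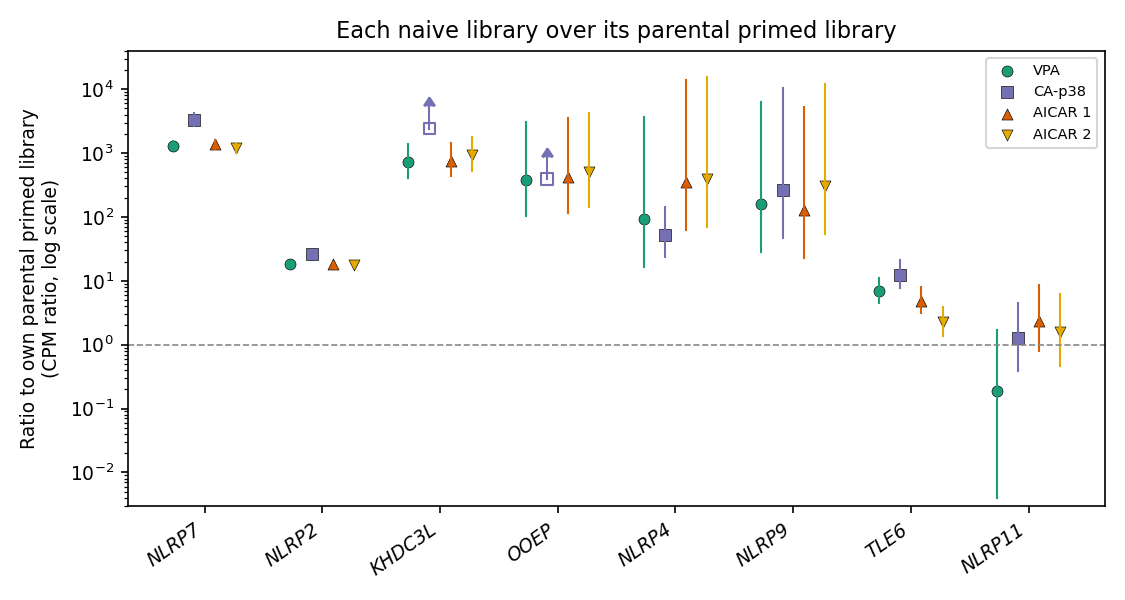
Ratio of CPM in each naive library to that in its own parental primed library (log axis) with 95% counting intervals as vertical lines, for the 8 genes with a ratio. Open symbols with arrows are lower bounds where the parental library had 0 counts, and the dashed line marks a ratio of 1, which only the NLRP11 intervals cross.

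The 3 genes whose pattern over the 6 libraries was most like that of NLRP7 were ALPG, DNMT3L and DPPA5, a placental-type alkaline phosphatase, a cofactor of DNA methyltransferases and the KH-domain marker above. Likeness was the Euclidean distance between centred profiles of log2(CPM + 0.5), which was 0.34, 0.65 and 1.18 among 18065 genes of at least 1 CPM. The profiles were not scaled, so this distance also reflects the size of the difference between the states. All 3 belong to the list of naive markers.

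Markers of other cell types moved between the states as well. Trophectoderm markers summed to 20.8 to 24.2 CPM in naive and 5.43 to 6.54 CPM in primed libraries, with 5 of 7 higher. Hypoblast markers (1 higher, 4 lower of 6) and fibroblast markers (1 higher, 4 lower of 8) were lower in sum, the latter at 40.3 to 83.0 CPM in naive against 199.9 to 211.2 CPM in primed libraries. Of 5 germ cell markers 3 were higher and 1 lower, and their sum was 149 to 197 CPM in naive and 1.57 to 3.6 CPM in primed libraries. SYCP3 (119.7 against 0.326 CPM) and MAEL (53.2 against 0.203 CPM) made up most of it and rose. DDX4, at 2 to 28 naive counts, was called higher, a call lost without either primed library. DAZL fell, to 0 to 2 counts, and TEX101 was not called. Their part in the levels of the 10 genes was not tested.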

How the data were processed

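Human embryonic stem cell libraries (4 naive, 2 primed) were measured by RNA-seq with the SMART-Seq Stranded kit. The deposited values are whole-number counts per Ensembl gene identifier: the authors trimmed adapters with cutadapt 1.15 through Trim Galore 0.4.4, mapped reads with Bowtie2 to Ensembl GRCh38 cDNA and noncoding RNA, and counted alignments of mapping quality at least 1. Their voom scaling is not in the table, and strand use is not stated. The table has 61222 features, of which 26 spike-ins were left out, and 23 columns of other studies that were not used. Totals ran from 46823699 to 54277064 counts per library.

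Identifiers sharing a name were summed (61196 to 48183 names). Naive and primed libraries, grouped by the labels, were tested in R 4.3.3 by edgeR 4.0.16 (TMM, filterByExpr, glmQLFit and glmQLFTest without a covariate), with Benjamini-Hochberg adjustment over 26497 names. Standard errors are the absolute log2 fold change divided by the square root of F. CPM are TMM-scaled, and intervals are 95% exact binomial ones. With 4 and 2 libraries the smallest two-sided p of an exact permutation is 0.0667, and none was run. Alternatives were DESeq2 1.42.0, limma-voom 3.58.1, other scalings and filters, parental line as a block, and leaving out each library. Positions came from GENCODE release 44, promoters from RefSeq.

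All 10 genes and the members of 4 related lists were named, with the nearest 3 profiles and genes overlapping a member. From the other lists at most the 4 with the highest mean CPM were named. Genes and markers named beyond these were chosen after their values were seen. The genes and lists were chosen with earlier results of these data known.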

Additional observations from a re-analysis of the deposited data

Results flagged for a closer look

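ZBED3 in AICAR 2 stood apart from the other naive libraries: it had 7.37 CPM there against 3.74 in VPA, 4.21 in CA-p38 and 4.19 in AICAR 1, and its gap to the nearest library was 0.87 of the whole range, over Dixon's 95% critical value for 4 samples. It was the 1 such case among 24 groups checked, and chance alone gives about 1 in 20.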

How the results depend on the processing

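All 108 alternative log2 fold changes of the 7 called genes kept their direction and stayed past the threshold. The number of the 10 genes called higher was 7 under every setting, leaving out each library included (7 to 7), except with at least 10 counts in every library, where it was 3, since that filter left only NLRP2, NLRP7 and TLE6 to test. No member was called lower under any setting. The 1 alternative added after the data were seen, the identifier on the chromosome alone, gave 7. The fits of KHDC3L (9.55 to 16.19), OOEP (8.82 to 12.94) and NLRP4 (5.52 to 8.01) moved most, at their extremes when a primed library was left out; the highest adjusted p values were 0.0145 for NLRP4 (limma-voom) and 0.015 for TLE6 (without primed CA-p38). Without a filter, NLRP11 had a log2 fold change of 0.34 (adjusted p = 0.841) and NLRP5 of 3.16 (adjusted p = 0.426) by edgeR. Over all genes, 6893 were higher and 7165 lower, and with library totals 7620 and 6498, with a median of 0.21.

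Ratios over the parental library, here with a prior count of 0.5, left their 95% counting interval in 16 of 128 alternatives, and those intervals are wide where the parental count is low. Against the mean of both primed libraries, NLRP2 gave 21.2, 22, 21.6 and 21 and NLRP7 1790, 2060, 1870 and 1630 in VPA, CA-p38, AICAR 1 and AICAR 2, and KHDC3L in CA-p38 gave 1130 in place of 14500. Inside their intervals, KHDC3L went from 693, 725 and 885 to 1330, 1390 and 1700 in VPA, AICAR 1 and AICAR 2, and NLRP4 from 62.7, 232 and 261 to 23.3, 86 and 97.1. With a prior count of 2, KHDC3L in CA-p38 gave 3630. With its most counted identifier alone, NLRP7 gave 1080, 5320, 1140 and 994. With library totals NLRP2 gave 18.8, 29 and 19.5 in VPA, CA-p38 and AICAR 2. The cause was not tested. The call of TLE2 was lost under limma-voom and without VPA, CA-p38 or either primed library. The parental line as a block, which pairs each naive library with its line, changed no call of the 10 genes. Replicate numbers follow accession order and pair nothing. Depth limits NLRP5, NLRP11 and NLRP13, and the primed levels of KHDC3L, OOEP, NLRP4 and NLRP9, which rest on 12 counts or fewer per library.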
